A study of Mus musculus with 2 samples.

Results

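Nupr1 and 7 genes of the integrated stress response, namely Atf4, Ddit3, Trib3, Asns, Chac1, Sesn2 and Ddit4, were followed through single-cell transcriptomes of the caudal part of mouse embryos at E10. These 8 genes were chosen by name, and all 8 were found among the 24543 genes of the count tables. CD31+CD44+ cells had been sorted from littermate control embryos (WT) and from VEC-Cre; Nupr1 fl/fl conditional knockout embryos (cKO), marked with a hashtag for each genotype and pooled, in 2 replicates of 678 and 1461 cells. All mice were kept on a C57BL/6 background. The Cre transgene of the cKO embryos is driven by the VE-cadherin promoter, which is active in endothelium, so that blood cells carry the deletion only through descent from cells that had expressed Cre. The controls were littermates of genotype Nupr1 fl/fl or Nupr1 fl/+, and how many of each entered a pool, the number of embryos per hashtag and the exons removed are not given in the sources used here. No barcode was shared between the replicates.

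The integrated stress response is a shared pathway by which a cell answers amino acid shortage, unfolded protein in the endoplasmic reticulum, haem deficiency or viral RNA. Each of these is sensed by its own kinase, all of which phosphorylate the translation factor eIF2α. General protein synthesis then falls while the mRNA of the transcription factor ATF4 is translated better, and ATF4 raises the transcription of genes for amino acid supply and, when stress persists, of genes linked to cell death. Nupr1 encodes a small chromatin-associated protein that many stresses induce, and it is itself a known target of ATF4. Because ATF4 is controlled in large part at translation, the Atf4 mRNA that was measured here does not report ATF4 protein.

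ATF4 and its C/EBP partners bind a composite element that reads TGATGNAA. Both strands of RefSeq promoters, from 250 bases before to 50 bases after each start site (build GRCm38.p6), were searched for these letters. They were found for 4 of the 8 members, Nupr1, Asns, Chac1 and Trib3, and for 4.51% of the 27025 genes with a promoter window. The stricter form TGATGCAA, which is contained in the first, was found for 2 of the 8 members, Chac1 and Nupr1, and for 1.03% of all genes. Such a match is a description of the letters and not of a bound site. The 30 bases around each match are shown 5′ to 3′ on the strand of the gene, with the match in capitals, since they are the sequence feature that Nupr1 shares with the amino acid and feedback genes of the pathway.
Nupr1 (chr7:126625562-126625591, minus strand, first base of the match 110 bases before the RefSeq start): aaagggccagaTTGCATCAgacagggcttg
Asns (chr6:7693214-7693243, minus strand, 23 bases before the start): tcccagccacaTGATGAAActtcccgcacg
Chac1 (chr2:119351038-119351067, plus strand, 193 bases before the start): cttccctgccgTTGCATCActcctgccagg
Trib3 (chr2:152344028-152344057, minus strand, just after the RefSeq start): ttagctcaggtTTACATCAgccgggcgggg
In Nupr1, Chac1 and Trib3 the element lies on the strand opposite to the gene, so the capitals are its reverse complement. No match was found in the windows of Atf4, Ddit3, Sesn2 and Ddit4.

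Cells were grouped by single markers as macrophage (C1qa), megakaryocyte (Gp9), myeloid (Mpo with Fcgr3), arterial (Gja5) or EHT (Gfi1 with Neurl3, EHT being the endothelial to haematopoietic transition). Of the 2139 cells, 573 were macrophage-gated, 236 megakaryocyte-gated, 144 myeloid-gated, 457 arterial-gated and 206 EHT-gated, 448 fell in no gate, and 75 fell in several and were left out of the comparisons. Cells that passed only the arterial and the EHT gate were counted as EHT-gated and are not among these 75. The EHT-gated cells therefore include cells above the Gja5 limit, while the arterial-gated cells exclude those with Gfi1 and Neurl3. Levels are given in CPM, that is UMIs of the gene per 1000000 UMIs of all cells summed over one population, genotype and replicate, with exact Poisson intervals that cover counting error only. The sums were of very unequal depth, because replicate 1 gave 26 WT macrophage-gated cells and replicate 2 gave 266. In the cKO cells of replicate 1 there were 8 myeloid-gated and 3 megakaryocyte-gated cells, and these sums entered no test. The 6 further macrophage markers summed to between 3805 and 5531 CPM in the macrophage-gated sums and to at most 196 CPM in any other gated sum, and the 6 further arterial markers to between 3445 and 5045 CPM in the arterial-gated sums and to between 568 and 1161 CPM in the EHT-gated sums. The 6 further EHT markers, among them Hlf, Procr and Runx1, reached 791 to 1005 CPM in EHT-gated cells but were not restricted to them, with 200 to 252 CPM in arterial-gated sums and up to 472 CPM in the other gated sums of at least 10 cells. The 5 further megakaryocyte markers summed to between 22043 and 23245 CPM in the megakaryocyte-gated sums of at least 10 cells. The 3 megakaryocyte-gated cKO cells of replicate 1 held only 99.0 CPM of these markers and 891 CPM of the EHT markers. In megakaryocyte-gated cells 5 erythroid markers summed to 2714 CPM in WT and 836 CPM in cKO of replicate 2, against 11.5 CPM in WT of replicate 1. The arterial-gated cells were shallower than the others, with a median of 24131 UMIs per cell against 55766 in EHT-gated and 56362 in macrophage-gated cells.

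Nupr1 was high in macrophage-gated and EHT-gated WT cells and low in the other populations. In WT macrophage-gated cells it reached 33.5 CPM in replicate 1 and 45.6 CPM in replicate 2 (mean 39.6 ± 8.55, SD, n = 2). In WT EHT-gated cells it reached 28.998 and 28.9 CPM. Arterial-gated cells had 3.81 and 10.9 CPM, myeloid-gated cells 1.98 and 10.2 CPM, and megakaryocyte-gated cells 0 UMIs among 10 cells in replicate 1, which allows up to 5.75 CPM, and 3.08 CPM among 129 cells in replicate 2. Both macrophage and both EHT sums therefore lay above every arterial, myeloid and megakaryocyte sum of WT cells. The order of the means was macrophage, EHT, arterial, myeloid and megakaryocyte, in which macrophage and EHT did not differ past the test (log2 fold change 0.76, SE 0.48, edgeR adjusted p = 0.28), and neither did myeloid and arterial (0.18, SE 0.68, adjusted p = 0.86) or megakaryocyte and arterial (-1.23, SE 0.77, adjusted p = 0.22, and 0.035 with the replicate as a block). Macrophage-gated cells were 27.0% of the WT cells and held 58.9% of the WT Nupr1 UMIs, and EHT-gated cells were 9.15% of the cells and held 14.9% of these UMIs.

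**Figure D1:**
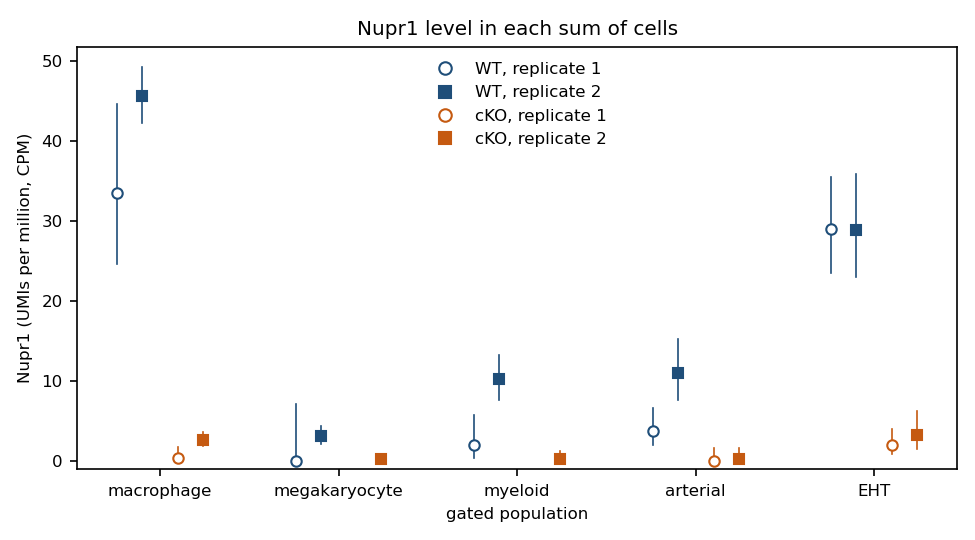
Nupr1 level (CPM, linear axis) in each sum of cells by gated population. Circles are replicate 1 and squares replicate 2, blue is WT and orange cKO, and bars are 95% exact Poisson intervals of the counts. Sums of under 10 cells are not drawn. The WT macrophage and EHT sums sit between 28.9 and 45.6 CPM, above all other sums, and all drawn cKO sums lie between 0 and 3.29 CPM.

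The 2 populations with high Nupr1 differed in how the UMIs were spread over cells. Among WT macrophage-gated cells 211 of 292 (72.3%, 95% exact binomial interval 66.7 to 77.3) had at least 1 Nupr1 UMI, and in replicate 2 the 5 cells with the most Nupr1 held 13.3% of the UMIs of 266 cells. Among WT EHT-gated cells 38 of 99 (38.4%, interval 28.8 to 48.7) had a Nupr1 UMI at a similar median depth, 53906 UMIs against 51665.5. In these EHT-gated cells the 5 highest held 70.8% of the Nupr1 UMIs in replicate 1 (68 of 96, in 55 cells) and 84.1% in replicate 2 (69 of 82, in 44 cells). The smaller number of macrophage-gated cells in replicate 1 had 59.6% of their 47 UMIs in the 5 highest of 26 cells, so top shares of sums of different size are not on one scale. In arterial-gated cells of replicate 2 the 5 highest of 109 cells held 94.1% of 34 UMIs, and 2 cells had 10 or more. Thinned to 10000 UMIs per cell, the expected share of cells with Nupr1 was 31.6% in macrophage-gated, 15.8% in EHT-gated, 6.52% in myeloid-gated, 3.38% in arterial-gated and 2.64% in megakaryocyte-gated WT cells. In the cKO cells, the reference in which the gene should be lost, the same thinned shares were 1.84%, 2.39%, 0.242%, 0.299% and 0.283%, at median depths of 61196, 57841, 88887, 23975.5 and 89501 UMIs.

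**Figure D2:**
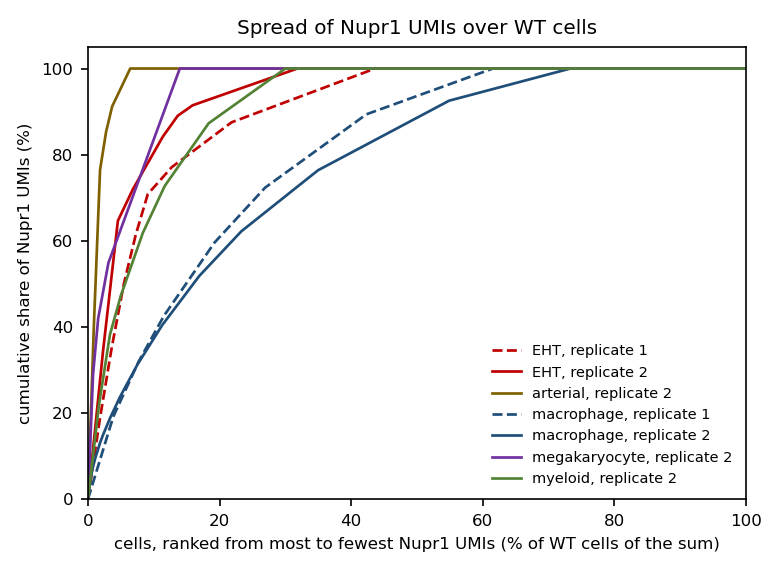
Cumulative share of the Nupr1 UMIs of a WT sum (%, vertical) against cells ranked from most to fewest Nupr1 UMIs (% of the cells of the sum, horizontal), for sums with at least 20 Nupr1 UMIs. Dashed lines are replicate 1 and solid lines replicate 2. The macrophage lines rise slowly, to 100% at the 61.5% and 73.3% of cells with a UMI, while the EHT and arterial lines rise steeply.

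The WT EHT-gated cells that carried most of the Nupr1 were looked at one by one, a choice made after their values were seen. There were 10 cells with 5 or more Nupr1 UMIs, 5 in each replicate, with a median of 12.5 Nupr1 UMIs and a highest of 28. All 10 had UMIs of Runx1, the transcription factor needed for the transition (5 to 33 per cell), of the endothelial cadherin Cdh5 (7 to 31), of the myeloid and stem cell factor Spi1 (2 to 40), of the stem cell receptor Procr (1 to 32) and of the stem cell factor Hlf (2 to 12). These genes were not particular to the 10 cells. Of the 61 WT EHT-gated cells with no Nupr1 UMI, 58 had Runx1, 58 Cdh5, 57 Spi1, 56 Procr and 52 Hlf. The macrophage gene C1qa had 1 UMI in the 10 cells together, Csf1r had 2 and Mrc1 had 0, against 137 for Nupr1. Gfi1, which is part of the gate, stood at 148 CPM in the 10 cells, at 80.3 CPM in the 28 cells with 1 to 4 Nupr1 UMIs and at 64.0 CPM in the 61 cells with none. The arterial gene Gja5 was at 40.0, 112 and 156 CPM in these 3 classes, with UMIs in 6, 14 and 34 cells. Its medians per cell were 1.5, 0.5 and 1 UMIs, and 1 cell held 112 of the 211 Gja5 UMIs of the middle class. No other member fell in the order of Gfi1. Atf4 was at 172, 166 and 190 CPM in the 3 classes. Ddit3, at 9.23, 13.3 and 14.9 CPM, and Ddit4, at 7.69, 15.4 and 20.2 CPM, rose instead, the first values from 6 and 5 UMIs. In the middle class 1 cell held 22 of the 29 Ddit4 UMIs. Asns, the enzyme that makes asparagine, was at 4.61, 28.2 and 25.1 CPM, the first from 3 UMIs (counting interval 0.951 to 13.5, against 20.2 to 30.8 in the last). Trib3, Chac1 and Sesn2 gave at most 9 UMIs in any class. These orders were not tested. Over the whole EHT-gated WT sums all 6 macrophage markers were detected, at a summed 65.5 CPM in replicate 1 and 17.9 CPM in replicate 2, against 4383 and 5531 CPM in macrophage-gated cells, and 66 UMIs of Mrc1 lay in 1 cell that had 1 to 4 Nupr1 UMIs.

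Nupr1, the gene targeted in the cKO embryos, was lower in cKO than in WT cells in each population and replicate where it could be compared. In macrophage-gated cells it stood at 0.326 CPM (1 UMI in 50 cells) and 2.65 CPM (38 UMIs in 231 cells), and in EHT-gated cells at 2.04 CPM (8 UMIs) and 3.29 CPM (9 UMIs). Arterial-gated cKO cells had 0 and 1 UMI, against 12 and 34 in WT. The ranges of the genotypes did not overlap in these 3 populations. In macrophage-gated cells the ratio of cKO to WT was 0.00973 in replicate 1 (95% counting interval 0.000241 to 0.0569, on 1 cKO UMI) and 0.058 in replicate 2 (interval 0.0407 to 0.0805). In EHT-gated cells it was 0.0704 in replicate 1 (interval 0.0296 to 0.144) and 0.114 in replicate 2 (interval 0.0503 to 0.227). No gene passed an edgeR adjusted p of 0.05 in the fit without a block in macrophage-gated, EHT-gated or arterial-gated cells, a background of 0% of 11327 genes (110, 274 and 113 genes at an unadjusted p under 0.05), and Nupr1 had log2 fold changes of -4.30 (SE 0.58, adjusted p = 0.098), -3.43 (SE 0.63, adjusted p = 1) and -5.16 (SE 1.15, adjusted p = 1). Each pool held cells of both genotypes, so the replicate number pairs the sums, and with the replicate as a block Nupr1 passed in macrophage-gated (log2 fold change -4.34, adjusted p = 0.00019) and EHT-gated cells (-3.44, adjusted p = 0.0055) but not in arterial-gated cells (-5.18, adjusted p = 0.24). That fit called 4, 6 and 3 genes in all. DESeq2 called 1 gene in macrophage-gated cells, which was Nupr1, 3 in EHT-gated cells with Nupr1 among them, and 0 in arterial-gated cells.

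Some Nupr1 remained in cells with the cKO hashtag. Of 281 cKO macrophage-gated cells 19 had a Nupr1 UMI (6.76%, interval 4.12 to 10.4), 11 of them exactly 1, 8 of them 2 or more and 2 of them 5 or more, with a highest of 7. In cKO EHT-gated cells 12 of 107 (11.2%, interval 5.93 to 18.8) had a UMI and the highest had 3. In the other populations 1 of 212 arterial-gated (0.472%), 2 of 97 megakaryocyte-gated (2.06%) and 1 of 61 myeloid-gated cKO cells (1.64%) had a UMI. Each of these cells had 1 UMI, and the last 2 populations were the deepest. In WT the shares were 6.94%, 12.9% and 24.1%, against 72.3% in macrophage-gated and 38.4% in EHT-gated cells. Over both replicates the ratio of cKO to WT was 0.0241, 0.0806 and 0.0228 in the same order. It was 0.0503 in macrophage-gated and 0.0883 in EHT-gated cells. The counting intervals of the arterial, megakaryocyte and myeloid ratios included both of these values, so the ratios did not set the populations apart. The genotype effect on Nupr1 did not differ past the test between EHT-gated and macrophage-gated cells (difference in log2 fold change 0.88, SE 0.88, adjusted p = 1.0) or between arterial-gated and macrophage-gated cells (-0.85, SE 1.53, adjusted p = 1.0), and edgeR called 0 of 11327 genes in either test, as did DESeq2 (138 and 107 genes at an unadjusted p under 0.05 in edgeR).

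The sex of the cells moved with the genotype. Cells with Xist and no UMI of 4 Y-linked genes were 92.8% and 98.7% of the WT cells and 0.872% and 57.6% of the cKO cells in replicates 1 and 2, so in replicate 1 sex and genotype cannot be told apart. Within the Xist cells of replicate 2 Nupr1 was at 45.8 CPM in 264 WT and 3.16 CPM in 118 cKO macrophage-gated cells, and at 28.9 CPM in 44 WT and 2.53 CPM in 22 cKO EHT-gated cells. The difference in Nupr1 was thus about as large within these cells as in all cells of that replicate.

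None of the other 5 members that passed the filter on low counts (Atf4, Ddit3, Asns, Chac1 and Ddit4) differed between genotypes past the test in any of the 5 populations, with or without the block. Atf4 was at 149 and 159 CPM in WT and 152 and 186 CPM in cKO macrophage-gated cells (log2 fold change 0.15, SE 0.29, adjusted p = 1), at 157 and 208 CPM against 167 and 267 CPM in EHT-gated cells (0.30, SE 0.29, adjusted p = 1), and at 119 and 130 CPM against 118 and 149 CPM in arterial-gated cells (0.12, SE 0.30, adjusted p = 1). Within each genotype Atf4 was higher in replicate 2 than in replicate 1, in these 3 populations, so the ranges of the genotypes overlapped. Within replicate 2 the ratio of cKO to WT was 1.17 in macrophage-gated (95% counting interval 1.11 to 1.24), 1.28 in EHT-gated (1.15 to 1.43), 1.14 in arterial-gated (1.0004 to 1.31), 1.15 in megakaryocyte-gated (1.08 to 1.21) and 1.22 in myeloid-gated cells (1.12 to 1.32). Within replicate 1 the intervals of the first 3 populations included 1 (ratios 1.02, 1.06 and 0.991). The ratio there was 0.980 in megakaryocyte-gated cells (0.646 to 1.46), on the 3 cKO cells that were low in megakaryocyte markers. In myeloid-gated cells it was 0.764 (0.608 to 0.955, on 8 cKO cells). The last interval excluded 1 on the side opposite to that of replicate 2. With the replicate as a block the adjusted p for Atf4 was 1 in all 5 populations. Ddit3, which encodes the stress-induced factor CHOP, changed by -0.25 (SE 0.34) in macrophage-gated, -0.08 (SE 0.38) in EHT-gated and 0.15 (SE 0.41) in arterial-gated cells, and Asns by 0.18 (SE 0.32), 0.04 (SE 0.34) and 0.46 (SE 0.40). Ddit4, an inhibitor of mTORC1 signalling, went opposite ways in the replicates. In arterial-gated cells it was at 83.8 CPM in WT and 58.4 CPM in cKO in replicate 1 but at 90.7 and 136 CPM in replicate 2, and in EHT-gated cells at 8.76 and 17.6 CPM in replicate 1 but at 27.5 and 9.13 CPM in replicate 2. The 95% counting intervals of the ratio of cKO to WT excluded 1 in all 4 cases, on opposite sides in the replicates (arterial 0.562 to 0.861 and 1.29 to 1.74, EHT 1.29 to 3.22 and 0.203 to 0.528). In WT EHT-gated cells the 5 highest cells held 21 of 29 Ddit4 UMIs in replicate 1 and 53 of 78 in replicate 2. The counting intervals leave such spread between cells out of account.

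**Figure D3:**
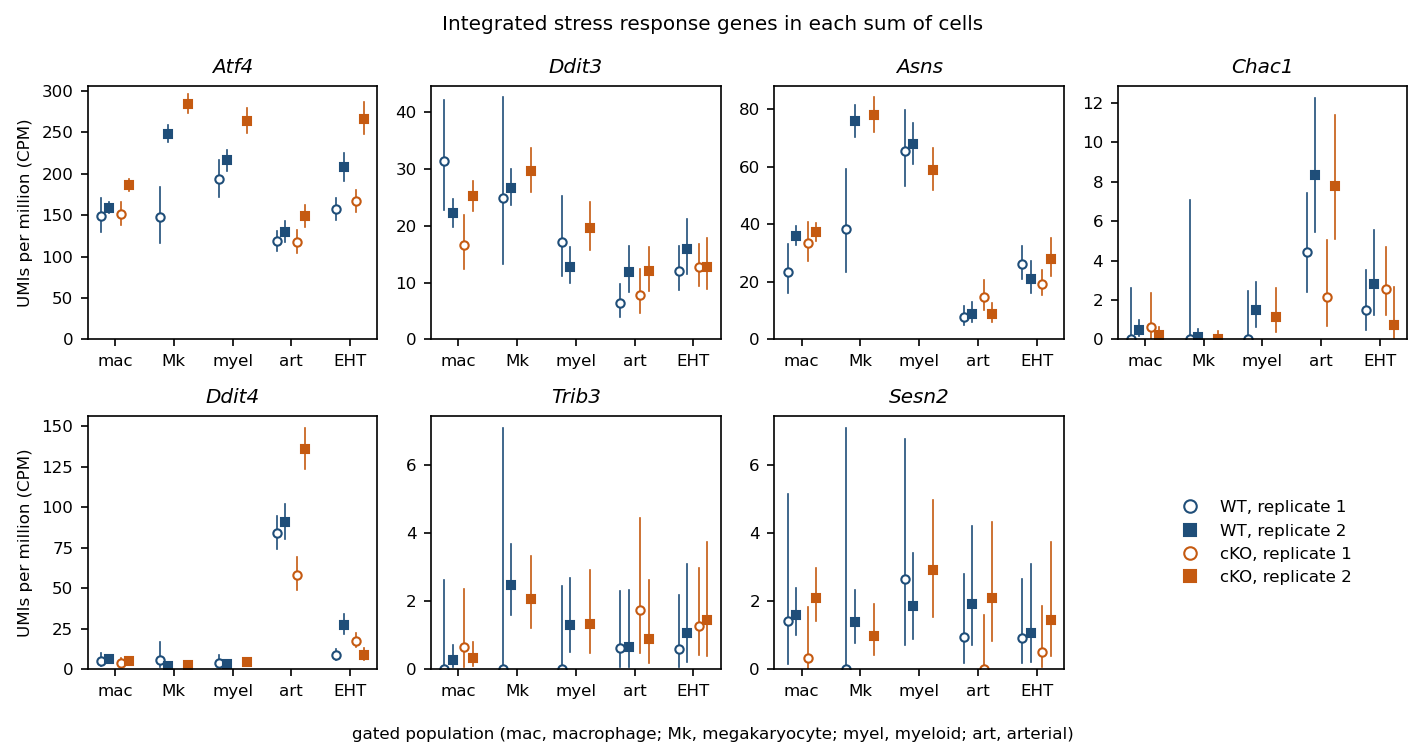
Levels (CPM, linear axes that start at 0 and differ between panels) of the other 7 members in each sum of cells, by gated population, with 95% exact Poisson intervals. Circles are replicate 1 and squares replicate 2, blue is WT and orange cKO, and sums of under 10 cells are not drawn. Ddit4 and Chac1 are highest in arterial-gated cells and Asns in megakaryocyte-gated and myeloid-gated cells, and Ddit4 in arterial-gated cells goes from 58.4 to 136 CPM between the cKO replicates, with both WT values in between.

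Of 38 measured further ATF4 and stress response targets, 14 eIF2α kinases, phosphatases and eIF2 or eIF2B subunits, 15 genes of the unfolded protein response and 17 p53 targets, 0 passed edgeR's adjusted threshold in macrophage-gated, EHT-gated or arterial-gated cells. The background there was 0% of 11327 genes, Nupr1 included, so these counts say nothing particular to the lists. The median log2 fold change of the 38 targets was 0.08, 0.06 and 0.08 in these populations, beside -0.01, 0.00 and 0.00 over all genes tested. In the myeloid-gated and megakaryocyte-gated cells, where cKO was a single sum of 53 and 94 cells, Nupr1 had log2 fold changes of -4.87 (SE 1.45) and -3.34 (SE 1.35), both at an adjusted p of 1, and 2 of 12232 genes (0.0164%) and 0 of 12232 genes (0%) were called by edgeR (172 and 208 genes at an unadjusted p under 0.05), and 0 in both by DESeq2.

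Between populations of WT cells the members differed widely, and they did so in a background in which a large share of all genes differed. Against arterial-gated cells, macrophage-gated cells had 5 of the 6 tested members past the test, 3 higher and 2 lower, where 45.7% of 11327 genes passed, 22.1% higher and 23.7% lower. EHT-gated cells had 3 of 6, with 2 higher and 1 lower, where 21.6% of genes passed, 9.53% higher and 12% lower. Myeloid-gated cells had 4 of 6, with 2 higher and 2 lower (46.6% of 12232 genes, 19.8% higher and 26.8% lower), and megakaryocyte-gated cells had 5 of 6, with 3 higher and 2 lower (40.6%, with 17% higher and 23.6% lower). In the 4 comparisons the genes that passed were higher for Nupr1, Atf4, Ddit3 or Asns and lower for Chac1 or Ddit4. The 4 comparisons share the arterial-gated sums and are therefore not separate evidence of that split.

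**Figure D4:**
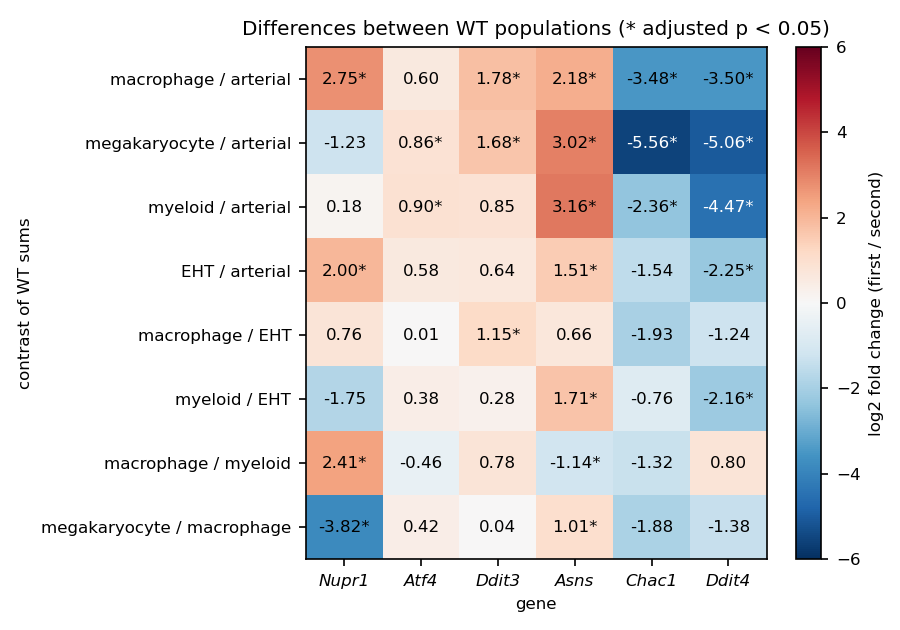
Log2 fold changes of the 6 tested members (columns) between WT populations (rows, first population over second), from the edgeR fit without a block. Red is higher and blue lower in the first population, and a star marks an adjusted p under 0.05. The 4 upper rows share the arterial-gated sums, where Ddit4 has a star in all 4 and lies between -5.06 and -2.25.

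Asns was lowest in arterial-gated cells, at 7.93 and 9.01 CPM. It stood at 26.3 and 21.1 CPM in EHT-gated, 23.5 and 36.0 CPM in macrophage-gated, 38.3 and 75.8 CPM in megakaryocyte-gated and 65.4 and 67.9 CPM in myeloid-gated WT cells, so that both values of each blood population and of EHT-gated cells lay above both arterial values. Compared with arterial-gated cells it was higher by a log2 fold change of 1.51 in EHT-gated (SE 0.37, adjusted p = 0.014), 2.18 in macrophage-gated (SE 0.37, adjusted p = 0.00044), 3.02 in megakaryocyte-gated (SE 0.39, adjusted p = 2.0e-05) and 3.16 in myeloid-gated cells (SE 0.39, adjusted p = 1.2e-05). Myeloid-gated cells also had more Asns than EHT-gated cells (1.71, SE 0.36, adjusted p = 0.0027).

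Ddit4 had the opposite order. It was at 83.8 and 90.7 CPM in arterial-gated WT cells, at 8.76 and 27.5 CPM in EHT-gated cells and at no more than 6.47 CPM in the macrophage-gated, megakaryocyte-gated and myeloid-gated sums, without overlap between arterial and any other population. Its log2 fold change against arterial-gated cells was -2.25 in EHT-gated (SE 0.51, adjusted p = 0.0086), -3.50 in macrophage-gated (SE 0.55, adjusted p = 0.00027), -4.47 in myeloid-gated (SE 0.59, adjusted p = 2.2e-05) and -5.06 in megakaryocyte-gated cells (SE 0.67, adjusted p = 2.3e-05). Thinned to the same 10000 UMIs, 50.4% and 52.0% of arterial-gated WT cells were expected to have Ddit4, against 5.89% and 6.501% of macrophage-gated cells, although the arterial-gated cells were the shallowest.

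Chac1, which degrades glutathione, was rare everywhere. It gave 14 and 26 UMIs in arterial-gated WT cells (4.44 and 8.36 CPM), 5 and 8 UMIs in EHT-gated cells, 0 and 7 in macrophage-gated cells, 0 and 8 in myeloid-gated cells and 0 and 1 in megakaryocyte-gated cells. It was lower than in arterial-gated cells in macrophage-gated (log2 fold change -3.48, SE 0.84, adjusted p = 0.0050), myeloid-gated (-2.36, SE 0.87, adjusted p = 0.036) and megakaryocyte-gated cells (adjusted p = 0.0025, on 1 UMI in 139 cells). The fitted fold change of the last depends on the prior count and is no bound.

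Ddit3 was highest in macrophage-gated and megakaryocyte-gated WT cells, with 31.4 and 22.2 CPM in the first and 24.9 and 26.7 CPM in the second. Myeloid-gated cells had 17.2 and 12.8 CPM, EHT-gated cells 12.1 and 15.8 CPM and arterial-gated cells 6.35 and 11.9 CPM. It was higher in macrophage-gated than in arterial-gated cells (log2 fold change 1.78, SE 0.38, adjusted p = 0.0023) and than in EHT-gated cells (1.15, SE 0.37, adjusted p = 0.032, the 1 member of 6 called in that comparison, beside 31.0% of 11327 genes called, 14.2% higher), and higher in megakaryocyte-gated than in arterial-gated cells (1.68, SE 0.38, adjusted p = 0.0023). The difference between macrophage-gated and EHT-gated cells was lost when either WT replicate was left out, when gate limits were doubled, after thinning and in DESeq2. The gene has a pair of nested entries of the same symbol in GENCODE M21, of which the count tables give 1 row.

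Atf4 varied least. WT cells of all 5 populations lay between 119 and 249 CPM, lowest in arterial-gated cells (119 and 130 CPM) and with 194 and 216 CPM in myeloid-gated and 148 and 249 CPM in megakaryocyte-gated cells. It was higher than in arterial-gated cells in myeloid-gated (log2 fold change 0.90, SE 0.32, adjusted p = 0.031) and megakaryocyte-gated cells (0.86, SE 0.32, adjusted p = 0.045). With the replicate as a block it also passed in macrophage-gated (0.57, adjusted p = 0.0019) and EHT-gated cells (0.57, adjusted p = 0.0037) against arterial-gated cells, and macrophage-gated cells had less of it than myeloid-gated cells (-0.46, adjusted p = 0.049).

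Nupr1 was higher than in arterial-gated cells in macrophage-gated (log2 fold change 2.75, SE 0.54, adjusted p = 0.0013) and EHT-gated cells (2.00, SE 0.55, adjusted p = 0.022). It was higher in macrophage-gated than in myeloid-gated cells (2.41, SE 0.62, adjusted p = 0.020), where 2 of 6 members were called, Nupr1 and with the opposite sign Asns (-1.14, SE 0.35, adjusted p = 0.043), beside 11.9% of genes called, 6.72% higher and 5.18% lower. Megakaryocyte-gated cells had less Nupr1 than macrophage-gated cells (-3.82, SE 0.74, adjusted p = 0.0013) and more Asns (1.01, SE 0.35, adjusted p = 0.048), beside 23.9% of genes called, 11.9% higher and 12% lower. In myeloid-gated against EHT-gated cells 2 of 6 members were called, Asns higher and Ddit4 lower (-2.16, SE 0.61, adjusted p = 0.019), beside 22.9% of genes called, 8.13% higher and 14.8% lower. With the replicate as a block Nupr1 was also lower in myeloid-gated than in EHT-gated cells (-1.93, adjusted p = 0.0021, against 0.057 without it). The call of Nupr1 in EHT-gated against arterial-gated cells was lost without WT replicate 1 (log2 fold change 1.46, adjusted p = 0.28) and with gate limits halved (1.82, adjusted p = 0.11), and held without WT replicate 2 (2.97, adjusted p = 0.0497). Its call in macrophage-gated against arterial-gated cells held without either (adjusted p = 0.020 and 0.018), while that in macrophage-gated against myeloid-gated cells was lost without WT replicate 1 (2.15, adjusted p = 0.080) and without WT replicate 2 (4.01, adjusted p = 0.059).

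With 2 replicates, many calls of the members between populations needed both. Of the 24 calls in the 8 population comparisons, 12 were kept without WT replicate 1 and 10 without WT replicate 2. The calls of Atf4 in myeloid-gated and megakaryocyte-gated cells, of Ddit3 in megakaryocyte-gated cells and of Chac1 in myeloid-gated cells, all against arterial-gated cells, were lost without either. Without WT replicate 1 those of Ddit3 in macrophage-gated cells and of Asns and Ddit4 in EHT-gated cells against arterial-gated cells were also lost. Without WT replicate 2 the lost calls included Asns in EHT-gated against arterial-gated cells, Chac1 in macrophage-gated and megakaryocyte-gated against arterial-gated cells, Asns and Ddit4 in myeloid-gated against EHT-gated cells, and Nupr1 in megakaryocyte-gated against macrophage-gated cells. The calls of Asns in macrophage-gated against myeloid-gated and in megakaryocyte-gated against macrophage-gated cells were lost when the sums of either genotype in either replicate were left out. After thinning all cells to 10000 UMIs 14 of the 24 calls were kept.

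Trib3, a pseudokinase that feeds back on ATF4 and CHOP, and Sesn2, a leucine sensor upstream of mTORC1, did not pass the filter on low counts and were not tested. Trib3 gave at most 5 UMIs in any macrophage-gated, arterial-gated or EHT-gated sum, and 25 UMIs in 129 WT (2.49 CPM) and 17 UMIs in 94 cKO megakaryocyte-gated cells of replicate 2 (2.07 CPM). Sesn2 ranged from 0 to 2.90 CPM over the sums of at least 10 cells. Without that filter Trib3 was called higher in megakaryocyte-gated than in macrophage-gated WT cells (log2 fold change 2.99, SE 1.03, edgeR adjusted p = 0.022).

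Further genes of the pathway, from lists chosen by their known roles, are set beside the members. Of 38 measured further targets of the response, 17 were higher and 3 lower in macrophage-gated than in arterial-gated WT cells (median log2 fold change 0.65, beside 0.05 over all genes, of which 22.1% were higher and 23.7% lower). Phgdh, the first enzyme of serine synthesis, was at 341 and 350 CPM in macrophage-gated, 327 and 350 CPM in EHT-gated and 16.2 and 13.8 CPM in arterial-gated cells (log2 fold change against arterial 4.81 in macrophage-gated, adjusted p = 2.4e-06, and 4.53 in EHT-gated cells, adjusted p = 9.0e-05). Psat1, the next enzyme, was at 103 and 80.2 CPM, 60.1 and 41.2 CPM and 12.4 and 11.3 CPM (3.21 and 2.13, adjusted p = 6.9e-06 and 0.00088). Slc1a5, a glutamine transporter, and Cebpb, a partner of ATF4, were also higher in both comparisons (Slc1a5 2.55 and 2.44, Cebpb 4.43 and 3.08). In EHT-gated against arterial-gated cells 9 of 38 targets were higher and 3 lower (median 0.36, beside 0.00 over all genes, of which 9.53% were higher and 12% lower). Atf3, another stress-induced factor and an immediate-early gene, was at 362 and 469 CPM in macrophage-gated but 98.5 and 68.3 CPM in EHT-gated cells (2.58, edgeR adjusted p = 0.00017). In that comparison 11 of 38 targets were higher and 3 lower (median 0.34), beside 14.2% of all genes higher and 16.9% lower.

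Myeloid-gated and megakaryocyte-gated cells had like counts against arterial-gated cells, 17 higher and 5 lower of 40 measured targets (median 0.57, beside -0.08 over all genes) and 16 higher and 5 lower of 40 (median 0.65, beside -0.06). Of all genes 19.8% and 17% were higher and 26.8% and 23.6% lower in these 2 comparisons. Among the 14 eIF2α kinases and eIF2 or eIF2B subunits, 3, 1, 5 and 5 were higher in macrophage-gated, EHT-gated, myeloid-gated and megakaryocyte-gated than in arterial-gated cells and 0, 0, 1 and 1 lower, beside 22.1%, 9.53%, 19.8% and 17% of all genes higher, so that the first 2 counts are near or under the background. Eif2b3, a subunit of the exchange factor on which eIF2α phosphorylation acts, was higher in all 4 (log2 fold change 0.82, 1.05, 1.18 and 1.59, adjusted p = 0.018, 0.012, 0.0014 and 0.00014). Eif2ak1, the haem-regulated kinase, was higher in megakaryocyte-gated than in arterial-gated (0.86, adjusted p = 0.012) and macrophage-gated cells (1.47, adjusted p = 0.00047). The mRNA of a kinase does not report its activity. Eif2ak1 is abundant in red cell precursors, and in replicate 2 the megakaryocyte-gated WT sum held 2714 CPM of 5 erythroid markers, whose part in the levels of Eif2ak1, Asns and Trib3 there was not tested.

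Of the genes of the unfolded protein response, 0 of 15 were higher and 9 lower in EHT-gated than in arterial-gated cells (median log2 fold change -0.68, beside 0.00 over all genes, of which 9.53% were higher and 12% lower), and 14 of 15 were higher and 1 lower in macrophage-gated than in EHT-gated cells (median 1.43, beside -0.02, with 14.2% of genes higher). Against arterial-gated cells 6 of 15 were higher and 1 lower in macrophage-gated (median 0.50), 3 of 16 higher and 3 lower in myeloid-gated (0.15) and 6 of 16 higher and 2 lower in megakaryocyte-gated cells (0.32). Of all genes 22.1%, 19.8% and 17% were higher and 23.7%, 26.8% and 23.6% lower in these comparisons, so the myeloid counts are near or under the background. Hspa5, the main chaperone of the endoplasmic reticulum, was at 1467 and 1060 CPM in macrophage-gated, 861 and 922 CPM in arterial-gated and 540 and 559 CPM in EHT-gated cells (log2 fold change macrophage against EHT 1.43, adjusted p = 0.00016, and EHT against arterial -0.67, adjusted p = 0.028). Xbp1, a factor of one arm of that response, was at 116 and 112, 87.9 and 108, and 36.5 and 51.0 CPM in the same order (1.63, adjusted p = 0.00034, and -1.13, adjusted p = 0.0070). Summed over the 16 listed genes, the level was 2417 and 2981 CPM in WT EHT-gated sums, 4230 and 4854 CPM in arterial-gated and 6008 and 5190 CPM in macrophage-gated sums. The summed level of 14 genes known to respond to cell dissociation also differed between these sums, at 4815 and 8568 CPM in EHT-gated, 2690 and 4012 CPM in arterial-gated and 4077 and 4880 CPM in macrophage-gated WT cells, and its part in these differences was not tested. Of 17 measured p53 targets, 4 were higher and 7 lower in macrophage-gated and 1 higher and 4 lower in EHT-gated than in arterial-gated cells (median log2 fold change 0.17 and 0.06), beside 22.1% and 9.53% of all genes higher and 23.7% and 12% lower.

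Across the 6 WT sums of the macrophage, arterial and EHT gates, the genes whose log2(CPM + 1) was most like that of Nupr1 were Pex7, which imports enzymes into peroxisomes (Pearson r = 0.996), Ddx56 (0.991), Spi1 (0.990), Emc6 (0.990) and Bmyc (0.989). Spi1 went from 1.90 and 11.3 CPM in arterial-gated cells to 223 and 200 CPM in EHT-gated and 347 and 514 CPM in macrophage-gated cells. Among the members r with Nupr1 was 0.95 for Asns, 0.85 for Ddit3, 0.73 for Atf4, -0.74 for Chac1 and -0.87 for Ddit4. These 6 points are 3 populations in the same 2 pools and differ in depth, and the coefficients only describe the order of the populations.

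Within the WT macrophage-gated cells, those with a Nupr1 UMI were compared with those without one. Replicate 1 gave 16 positive and 10 negative cells and replicate 2 gave 195 and 71. The positive cells were deeper, with median totals of 60640 against 37749.5 UMIs in replicate 1 and 54266 against 45363 in replicate 2, so depth moved with the split and its part was not tested. Of 11376 genes 1 was called (0.00879%), and this was Nupr1 itself, by which the cells were split (186 genes at an unadjusted p under 0.05, and 5 genes called by DESeq2). None of the 5 other tested members passed. Atf4 was at 153 CPM in positive and 137 CPM in negative cells of replicate 1 and at 153 and 179 CPM in replicate 2 (log2 fold change -0.04, SE 0.30, adjusted p = 1), where the counting intervals of replicate 2 did not overlap (146 to 160 and 165 to 194 CPM) but the order was the opposite of that in replicate 1. Asns was at 19.7 and 35.7 CPM in replicate 1 and 36.7 and 33.7 CPM in replicate 2 (-0.15, SE 0.36, adjusted p = 1).

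The summed level of Ddit3 differed in opposite directions in the replicates of this split. In replicate 1 Ddit3 was at 38.5 CPM in positive cells (41 UMIs, interval 27.6 to 52.2) and 8.94 CPM in negative cells (3 UMIs, interval 1.84 to 26.1), and in replicate 2 at 20.7 CPM (229 UMIs, interval 18.1 to 23.6) and 27.1 CPM (90 UMIs, interval 21.8 to 33.3). The fitted log2 fold change was 0.31 (SE 0.46, adjusted p = 1). The larger replicate thus had a lower summed level of Ddit3 in the Nupr1-positive cells, with overlapping intervals. The share of cells with a Ddit3 UMI was not lower there, at 61.5% of positive and 50.7% of negative cells. Thinned to 10000 UMIs, these shares were 18.3% and 17.7%. In replicate 1 the 5 highest of the 26 cells held 33 of the 44 Ddit3 UMIs. Across the 266 WT macrophage-gated cells of replicate 2, Spearman's rho between the CPM of Nupr1 and that of another member lay between -0.02 for Atf4 and 0.06 for Sesn2, with 120 cells that had both Nupr1 and Ddit3, while Atf4 and Ddit3 had a rho of 0.27 and Atf4 and Asns 0.16. In counts this sparse such values only describe these cells.

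**Figure D5:**
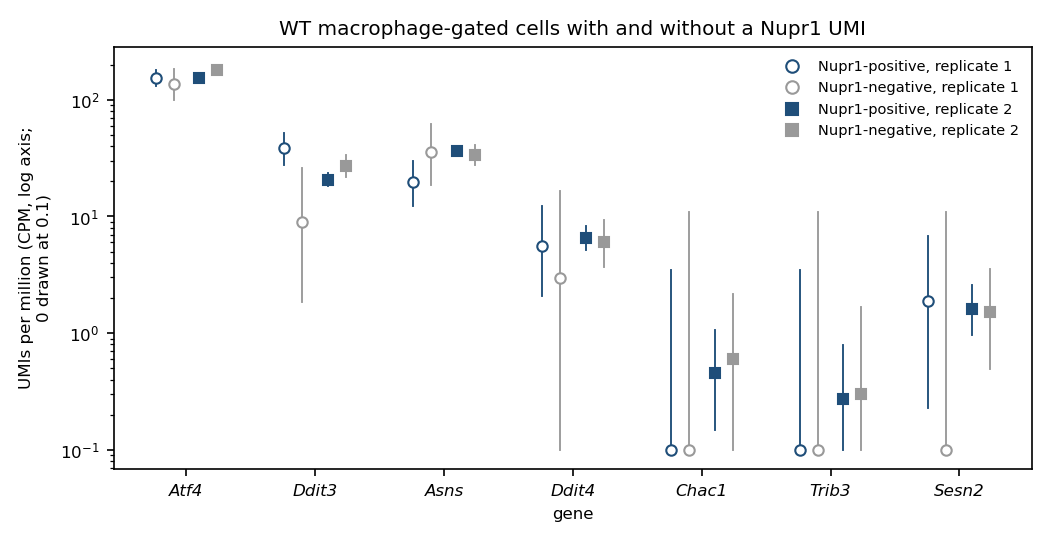
Levels (CPM, log axis, values of 0 drawn at 0.1) of the other 7 members in WT macrophage-gated cells with (blue) and without (grey) a Nupr1 UMI, with 95% exact Poisson intervals cut at 0.1. Circles are replicate 1 and squares replicate 2. In replicate 2 the intervals overlap for all genes except Atf4 (146 to 160 against 165 to 194 CPM), and Ddit3 lies higher in the positive cells of replicate 1 and lower in those of replicate 2.

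Nupr1 was found in each kind of macrophage looked at. WT macrophage-gated cells with Mrc1 and Lyve1, genes of tissue-resident macrophages, had 38.3 CPM of Nupr1 (114 cells, interval 33.6 to 43.4), cells with P2ry12 and Tmem119, genes of microglia, had 57.0 CPM (57 cells, interval 48.5 to 66.5), and the remaining 121 cells had 45.3 CPM (interval 40.3 to 50.7). The shares of cells with a Nupr1 UMI were 73.7%, 73.7% and 70.2%. The cells with microglial genes had the higher level with the same share of positive cells, at a median depth of 48898 against 54596 UMIs. By replicate the levels were 43.9 and 58.5 CPM in these cells and 19.9 and 40.1 CPM in the cells with Mrc1 and Lyve1. The replicate 1 levels rest on 13 Nupr1 UMIs in 5 cells (interval 23.4 to 75.0) and 11 UMIs in 10 cells (9.93 to 35.6), and these intervals overlapped. Ddit3 was at 18.04, 26.9 and 26.1 CPM in the 3 kinds in this order, and Asns at 37.5, 19.0 and 39.1 CPM. These intervals cover the counting error and not the spread between embryos.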

How the data were processed

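The authors aligned 10x Chromium 3′ reads with Cell Ranger 5.0.1 (build mm10 per the labels), kept hashtag singlets with HTODemux and deposited un-normalized counts (UMIs for each gene in each cell) together with each cell's hashtag. Of the 2139 cells, 101, all in replicate 1, were outside the stated limits (1800 genes, 6000 UMIs, 5% mitochondrial) and were kept. The depth was 32430285 UMIs for replicate 1 and 91511039 for replicate 2.

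Cells were gated per 10000 UMIs at C1qa 2, Gp9 0.5, Mpo 1 with Fcgr3 0.5 and Gja5 1, and for EHT at 1 UMI of Gfi1 and of Neurl3. Cells in several gates were left out, except that cells in only the arterial and the EHT gate were counted as EHT-gated. No doublet caller was run. For C1qa 91 cells lay within 2-fold above and 43 within 2-fold below the limit. Counts were summed per population, genotype and replicate, and 12 sums of at least 10 cells were fitted together with edgeR 4.0.16 in R 4.3.3 (TMM, low-count filter, quasi-likelihood test, Benjamini-Hochberg adjustment, threshold 0.05). The myeloid and megakaryocyte comparisons come from a fit with 18 sums, chosen after cell numbers were seen, in which cKO has 1 sum each and is assumed to vary like the other groups. Standard errors were derived from the F statistic. Hashtags name genotypes, not embryos, so the p-values do not measure the spread between embryos. Sums of one pool are not fully independent, which the fit without a block leaves out of account. With the block, the shift shared by all sums of a pool is taken out. Those p-values then measure the scatter left among the sums of the 2 pools. The replicate number pairs the sums through the shared pool (correlation of replicate deviations 0.20 in EHT-gated, 0.37 in arterial-gated and 0.42 in macrophage-gated cells over 11327 genes). The fit without a block was also run on simulated counts, which were drawn as independent sums. No shift shared within a pool was simulated, so that run does not cover the pairing of these sums. Expected shares after thinning to 10000 UMIs were computed per cell, leaving out shallower cells. A count of 0 allows up to 3 counts. Coordinates come from RefSeq windows on GRCm38.p6, the build family of mm10, with n = 8 members matched.

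The members and lists were chosen with earlier results of these data known. The text names all 8 members, at most 4 genes of lowest adjusted p per list and comparison, and the 5 genes most like Nupr1.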

Additional observations from a re-analysis of the deposited data

How the results depend on the processing

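No called value changed direction under the alternatives run, but 100 member fold changes that were called neither before nor after changed sign, 43 of them between genotypes. After thinning to 10000 UMIs the change of Ddit3 between genotypes was 0.38 in macrophage-gated and 0.046 in EHT-gated cells and that of Asns -0.20 and -0.47. In EHT-gated cells Ddit3 was at 0.18 with gate limits halved and with gate limits doubled and at 0.21 with marker lists in place of gates, and Asns at -0.17 with gate limits halved. The difference of the genotype effects on Nupr1 was -0.30 between EHT-gated and macrophage-gated cells with gate limits doubled, and 1.95 with gate limits halved and 0.43 after thinning between arterial-gated and macrophage-gated cells. In the split by Nupr1, Atf4 was at 0.040 with marker lists, 0.020 with the split at 2 UMIs and 0.20 with the split after thinning. Each genotype of each replicate was also left out in turn. The genotype change of Atf4 then ranged from -0.12 to 0.37 in macrophage-gated, -0.14 to 0.64 in EHT-gated and -0.10 to 0.30 in arterial-gated cells. That of Ddit3 ranged from -0.74 to 0.064, -0.26 to 0.12 and -0.25 to 0.69. That of Asns ranged from -0.12 to 0.75 in macrophage-gated and -0.30 to 0.34 in EHT-gated cells. That of Nupr1 in megakaryocyte-gated cells ranged from -3.55 to 3.22, the last without WT replicate 2, where the WT sum left had 0 UMIs. Nupr1 in myeloid against arterial ranged from -0.80 to 0.18, and in the split Atf4 from -0.17 to 0.26, Ddit3 from -0.34 to 2.20 and Asns from -0.76 to 0.17. Ddit4 between genotypes in EHT-gated cells went from -0.36 to 0.66 without WT replicate 2.

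Of the members, 0 were called between genotypes in macrophage-gated, EHT-gated, arterial-gated and myeloid-gated cells, and 1, Nupr1, was called in macrophage-gated and EHT-gated cells with the replicate block, in DESeq2 and without the low-count filter, in EHT-gated and myeloid-gated cells with 1 fit per comparison, and in arterial-gated and myeloid-gated cells without that filter. With 1 genotype of 1 replicate left out at a time, the call of Nupr1 in macrophage-gated cells was not the same in all fits. The block kept all 24 main calls and added 8.

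In macrophage against EHT the 1 member called became 0 in DESeq2 and with gate limits doubled, and 2 without the filter and with gate limits halved. That call was also lost without either WT replicate. In macrophage against myeloid the 2 became 1 in DESeq2 and with marker lists in place of gates, and 0 with gate limits halved and after thinning to 10000 UMIs. Calls were also lost whenever 1 genotype of 1 replicate was left out. In megakaryocyte against macrophage the 2 became 1 with 1 fit per comparison, in DESeq2, with RLE normalization and after thinning, and 4 without the filter. Here, too, calls were lost whenever 1 genotype of 1 replicate was left out. After thinning, 2 of 4 remained in number in myeloid against arterial and 1 of 2 in myeloid against EHT. Without 1 library the numbers were 2 to 4 in myeloid against arterial, 0 to 3 in EHT against arterial, 0 to 2 in myeloid against EHT and 2 to 5 in megakaryocyte against arterial. The causes were not tested.

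Over all genes the block moved the calls from 2444 to 4509 in EHT against arterial, from 1456 to 2923 in macrophage against myeloid, from 2921 to 4436 in megakaryocyte against macrophage, from 2804 to 4429 in myeloid against EHT and from 2 to 5 in the myeloid genotype comparison. Thinning gave 3369 of 5179 in macrophage against arterial, 1300 in EHT against arterial, 2031 of 3515 in macrophage against EHT, 3312 of 5698 in myeloid against arterial, 1028 in myeloid against EHT, 698 in macrophage against myeloid, 3117 of 4969 in megakaryocyte against arterial and 1674 in megakaryocyte against macrophage. Without the filter 102 genes were called between genotypes in EHT-gated, 21 in macrophage-gated, 13 in arterial-gated, 22 in myeloid-gated and 38 in megakaryocyte-gated cells, against 0, 0, 0, 2 and 0 with it. The split gave no value with gate limits doubled, under the stated cell limits or after thinning by the planned rule, since a sum fell under 10 cells. A split after thinning that kept small sums, chosen after seeing the data, called 0 members. Without cKO replicate 2 no myeloid or megakaryocyte genotype value could be had.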
